A study of Mus musculus with 12 samples.

Results

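The 10 genes described here encode the machinery of MHC class I antigen presentation: the heavy chains H2-K1 and H2-D1, the light chain B2m, the peptide transporter subunits Tap1 and Tap2, tapasin (Tapbp), the inducible proteasome subunits Psmb8, Psmb9 and Psmb10, and the transactivator Nlrc5. They were chosen by symbol, with earlier results of these data known, from a table of 24341 gene rows. All 10 were found and passed the filter on low values. RNA was sequenced in 12 libraries from SV40-immortalised cells of adipose tissue of C57Bl/6 mice. Aclyf/f cells, whose Acly gene is flanked by loxP sites, served as controls for Acly-/- cells. Each genotype was sampled as preadipocytes on day 0 and as adipocytes on day 4 of differentiation with a cocktail that included rosiglitazone, with 3 libraries in each of the 4 groups. All groups shared the SV40 immortalisation and a medium with 10% serum, and neither day 0 group had received the cocktail. How Acly was deleted, how many lines or clones were used and whether replicates are separate cultures are not stated in the labels, so p-values measure only the spread between these libraries. A difference between genotypes cannot be told apart from one between lines or clones. Acly loss below names the comparison of Acly-/- with Aclyf/f cells. In bulk RNA, a change in the number of cells of one kind and a change in RNA per cell cannot be told apart.

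MHC class I molecules display peptides from the cell's own proteins at its surface, where CD8 T cells and natural killer cells read them. The proteasome cuts those peptides, and the inducible subunits Psmb8, Psmb9 and Psmb10 replace Psmb5, Psmb6 and Psmb7 in the version called the immunoproteasome. Tap1 and Tap2 carry peptides into the endoplasmic reticulum, where tapasin and chaperones load them onto heavy chains paired with B2m. Interferons raise the whole set through STAT and IRF factors, and Nlrc5, which is itself interferon-inducible, acts on class I promoters through the conserved X and Y boxes. Nearly all nucleated cells, fibroblasts and adipocytes among them, carry class I molecules.

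Of the 10 genes, 7 lie on chromosome 17 between 33919478 and 35267497 on mm10, in the mouse MHC region. Psmb9, Tap1, Psmb8 and Tap2 stand side by side in that order within 34.2 kb, and Psmb9 and Tap1 are read away from each other from starts 225 bases apart. Psmb10 and Nlrc5 are on chromosome 8 and B2m is on chromosome 2. Upstream sequences were taken from RefSeq (GRCm38.p6), where 8 of the 10 genes matched by symbol, all but Tap2 and Nlrc5. The last 250 bases before each start were searched on both strands for short motifs, and matches are printed in capitals. Of several starts in the table the first listed was used, and for H2-K1 this window (chr17:34000348-34000597, minus strand) lies within the RefSeq gene, which extends to 34000619, while the deposited locus ends at 34000333. The strings searched were AANNGAAA (the core of an IRF element), TTCNNNGAA (the STAT-bound GAS form), GGG, any 2 bases and TTCCC (a kappaB form), CCAAT (the Y box) and TGACG (the X2 core), and adjacent matches could overlap. The X2 string, and a pair made of X2 and a reversed Y box 20 bases downstream of it, were added after the sequences had been seen. That pair occurred in 3 of the 8 genes, H2-K1, H2-D1 and B2m, and in 0.0925% of 27025 promoters of the same length. As the pair was set with these sequences in view, the shares are a description and not a test. H2-K1 and H2-D1 are also alike upstream (88.3% of 188 aligned columns), so they are not separate cases. The 3 stretches of 30 bases are shown because these genes alone among the 8 hold the pair, at chr17:34000359-34000388 on the minus strand, chr17:35262993-35263022 on the plus strand and chr2:122147609-122147638 on the plus strand.
H2-K1: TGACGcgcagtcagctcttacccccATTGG
H2-D1: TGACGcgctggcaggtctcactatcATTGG
B2m: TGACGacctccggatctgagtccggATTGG

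The full upstream windows of H2-D1 (chr17:35262844-35263093, plus strand) and B2m (chr2:122147437-122147686, plus strand) show how the motifs are spaced. In H2-D1 the kappaB form comes first, then the IRF core, the X2 core and the Y box in reverse, with a further CCAAT nearer the start. The windows of H2-K1 and H2-D1 aligned over 188 columns with 166 identical bases (88.3%), and both held the kappaB form, found in 1.44% of all promoters. The IRF core was in 3 of the 8 genes, H2-K1, H2-D1 and B2m, and in 21.6% of all promoters.
H2-D1 upstream: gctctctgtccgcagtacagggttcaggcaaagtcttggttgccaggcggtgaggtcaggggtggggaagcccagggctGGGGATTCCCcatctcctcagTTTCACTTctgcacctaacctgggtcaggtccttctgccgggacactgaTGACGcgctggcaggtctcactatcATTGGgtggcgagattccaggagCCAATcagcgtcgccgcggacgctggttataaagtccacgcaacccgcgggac
B2m upstream: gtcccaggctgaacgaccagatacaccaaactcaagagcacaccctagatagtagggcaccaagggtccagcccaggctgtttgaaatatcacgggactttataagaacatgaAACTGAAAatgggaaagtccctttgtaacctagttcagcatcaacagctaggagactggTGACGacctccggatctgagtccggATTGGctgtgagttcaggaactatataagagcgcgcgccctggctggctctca

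The stretch shared by Psmb9 and Tap1 (chr17:34187331-34187555, shown on the plus strand, the Tap1 sense), and the windows of Psmb8 (chr17:34197945-34198194, plus strand) and Psmb10 (chr8:105938393-105938642, minus strand), are shown because these genes had the larger rises in preadipocytes described below. Between Psmb9 and Tap1 there was a CCAAT next to the Psmb9 start and an X2 core 86 bases before the Tap1 start. CCAAT was in 6 of the 8 genes and in 34.5% of all promoters, and the X2 core was in 5 of the 8 and in 17.9% of all promoters. Tap1 and Psmb9 count as 2 genes in both tallies, although their matches are the same CCAAT and the same TGACG in the shared stretch. Psmb8 held 1 GAS form, which 7.18% of all promoters also hold, and none of the strings matched within the Psmb10 window. A match is a description of letters and was not tested as a binding site.
Psmb9-Tap1: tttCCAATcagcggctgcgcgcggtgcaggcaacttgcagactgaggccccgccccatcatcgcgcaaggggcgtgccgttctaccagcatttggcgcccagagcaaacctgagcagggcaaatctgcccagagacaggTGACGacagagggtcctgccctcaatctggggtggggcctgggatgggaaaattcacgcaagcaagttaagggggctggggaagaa
Psmb8 upstream: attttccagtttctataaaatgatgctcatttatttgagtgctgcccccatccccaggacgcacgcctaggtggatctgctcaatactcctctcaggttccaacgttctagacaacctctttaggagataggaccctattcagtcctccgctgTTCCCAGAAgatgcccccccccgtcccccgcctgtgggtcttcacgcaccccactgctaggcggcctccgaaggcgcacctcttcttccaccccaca
Psmb10 upstream: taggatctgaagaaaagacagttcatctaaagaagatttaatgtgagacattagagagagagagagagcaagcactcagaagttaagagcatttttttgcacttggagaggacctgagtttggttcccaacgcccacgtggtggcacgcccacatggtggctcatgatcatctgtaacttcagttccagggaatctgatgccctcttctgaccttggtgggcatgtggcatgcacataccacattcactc

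Levels are FPKM, sequenced fragments scaled to transcript length and to library size, and are given per library in the order 1, 2, 3 of each group. Depth was estimated from the steps in low values and differed by up to 1.93-fold between libraries, and the fewest estimated fragments behind a value of these genes were 181 (Psmb10). Acly, the deleted gene, had means (± SD, n = 3) of 86.9 ± 2.33 FPKM in control and 12.1 ± 0.309 FPKM in knockout preadipocytes, and of 754 ± 52.5 and 12.4 ± 1.17 FPKM in the adipocytes. All 8 adipocyte markers examined rose with differentiation in both genotypes, where 36.5% of all genes were called higher in Aclyf/f and 30.4% in Acly-/- cells. Of these markers, 6 reached 1 FPKM in any Aclyf/f preadipocyte library and 5 in any Acly-/- preadipocyte library. For markers that passed the filter on low values only through the adipocytes, the filter fixed the direction. Of 14 leukocyte markers, Ptprc, Itgam, Tyrobp and Nkg7 stood at the table's floor of 0.01 FPKM in all 12 libraries, and Cd68 alone passed the filter. Fold changes were fitted with limma on log2(FPKM + 1) over 11777 genes, called at an adjusted p under 0.05, while ratios are of mean FPKM.

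In preadipocytes, loss of Acly came with higher expression of all 10 genes. Psmb10 was 4.37-fold higher, Tap1 3.13-fold, Psmb9 2.77-fold, Psmb8 2.56-fold and Tapbp 2.42-fold, whereas the heavy chains H2-K1 and H2-D1 were 1.87-fold and 1.83-fold higher and B2m 1.22-fold. By limma 10 of 10 were called higher, where 19.7% of all genes tested were, and 9 of 10 in 16 of 19 alternative settings, in which the call of B2m was lost. The libraries of the 2 genotypes did not overlap for 9 of the 10, all but B2m, against 23.2% of all genes apart in that direction. The median change was 1.17 on the log2 scale, and that of all genes was -0.01. The preadipocytes of the 2 genotypes differed in differentiation markers. Of 8 adipocyte markers, 0 were higher and 5 lower without Acly (19.7% and 22.4% of all genes), led by Fabp4 (-1.34), Cebpa (-1.19) and Cd36 (-0.55). Of 4 tested preadipocyte markers, 3 were higher and 1, Pdgfra (-0.86), was lower. The part of these markers in the changes of the 10 genes was not tested.

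In adipocytes the picture was mixed. H2-D1 was 1.42-fold and B2m 2.04-fold higher without Acly, Psmb9 was 1.78-fold and Psmb8 1.30-fold lower, and H2-K1, Tap1, Tap2, Tapbp, Psmb10 and Nlrc5 were not called. That is 2 of 10 called higher, where 25.6% of all genes were, and 2 of 10 called lower, where 29.2% were, shares close to the background. Groups stood apart for 2 genes upward (29.5% of all genes) and 3 downward (33.7%), the third being Tap1. The median change was -0.11, and -0.02 over all genes. The adipocytes of the 2 genotypes also differed in differentiation markers: 7 of 8 adipocyte markers were lower in Acly-/- adipocytes, with Adipoq at 60.7 ± 1.24 FPKM against 544 ± 7.05, and 4 of 4 tested preadipocyte markers were higher. The summed leukocyte markers were at 30.7 to 35.9 FPKM in Acly-/- adipocytes and at 2.08 to 3.09 FPKM in Aclyf/f adipocytes. Without Cd68 the sums were 0.949 to 1.70 and 0.748 to 1.20 FPKM, and Cd68, a lysosomal protein of macrophages, was 21.8-fold higher in Acly-/- adipocytes (log2 fold change 3.75, adjusted p = 6.31e-10). The part of these markers in the changes of the class I genes was not tested.

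Differentiation went with a rise of 9 of the 10 genes in cells with Acly, while in cells without it the numbers called in each direction were close to those of all genes. In Aclyf/f cells 9 of 10 genes were called higher in adipocytes, all but B2m, against 36.5% of all genes; the same 9 stood apart, against 37.9%. H2-K1 rose 4.28-fold and Psmb9 4.14-fold, and the median change was 1.10. In Acly-/- cells H2-K1, H2-D1 and B2m rose, while Tap1, Tap2, Tapbp and Psmb10 fell. These are 3 of 10 called higher (30.4% of all genes) and 4 of 10 called lower (31.0%), shares near the background, and the groups of these 7 genes did not overlap (32.1% of all genes apart upward and 32.5% downward). The median change was -0.27, and that of all genes was 0.00 in both genotypes. The difference between the 2 differentiation responses was called for 9 of 10 genes (50.2% of all genes), 8 of them lower in Acly-/- cells (26.4% of all genes) and B2m higher (23.7%). The 5 comparisons share libraries and are not independent of each other.

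**Figure D1:**
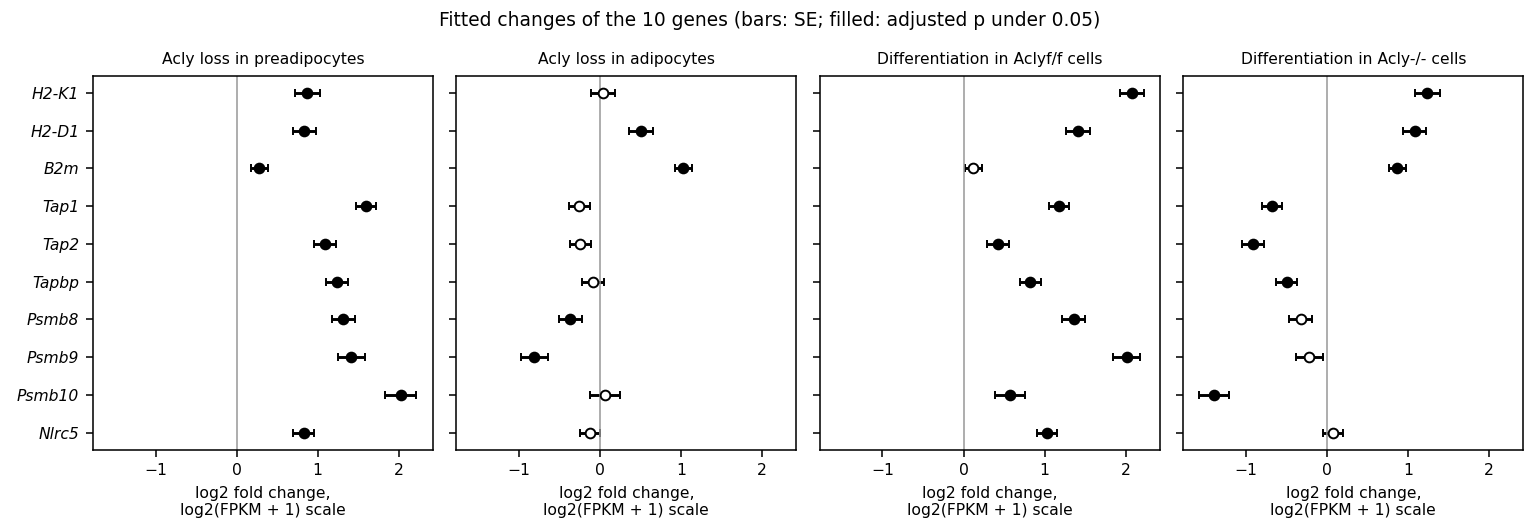
Fitted log2 fold changes (x axis, log2(FPKM + 1) scale) of the 10 genes in 4 comparisons, with SE as bars and filled points at an adjusted p under 0.05. All 10 points lie to the right of 0 for Acly loss in preadipocytes, and they spread to both sides of 0 for Acly loss in adipocytes and for differentiation in Acly-/- cells.

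The heavy chains H2-K1 and H2-D1, which hold the peptide at the cell surface, rose with differentiation in both genotypes. H2-K1 was at 136, 127 and 114 FPKM in Aclyf/f preadipocytes and at 175, 245 and 284 FPKM in Acly-/- preadipocytes. In adipocytes it was at 627, 495 and 487 FPKM with Acly and at 508, 563 and 567 FPKM without. Every Acly-/- preadipocyte library was above every Aclyf/f one, and the adipocyte groups overlapped. The log2 fold change was 0.87 (SE 0.15, adjusted p = 0.000396) in preadipocytes and 0.03 (adjusted p = 0.867) in adipocytes. The rise with differentiation was smaller without Acly, at 1.24 against 2.08 (difference -0.84, adjusted p = 0.00503).

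H2-D1 differed from H2-K1 in adipocytes. Its levels were 234, 227 and 212 FPKM in Aclyf/f preadipocytes and 305, 417 and 506 FPKM in Acly-/- preadipocytes. They were 673, 597 and 532 FPKM in Aclyf/f adipocytes and 795, 872 and 886 FPKM in Acly-/- adipocytes. The 4 groups did not overlap: both adipocyte groups lay above both preadipocyte groups, and within each stage the libraries without Acly lay above. H2-D1 was higher without Acly by 0.84 (SE 0.15, adjusted p = 0.000439) on the log2 scale in preadipocytes and by 0.51 (SE 0.15, adjusted p = 0.00919) in adipocytes. The adipocyte call was lost with no filter on low values (adjusted p = 0.0576), and it was made in the other 18 alternative settings. Differentiation raised it by 1.41 with Acly and by 1.08 without (adjusted p = 9.13e-07 and 2.03e-05), and the difference of -0.33 was not called (adjusted p = 0.199). That difference was called in 2 of 18 alternative settings, 1 of them without library 1 of the Acly-/- preadipocytes (-0.53, adjusted p = 0.0117). H2-K1 and H2-D1 share 9.63% and 12.8% of their 50-base transcript words with other genes, H2-Q10 and H2-Q1 foremost, so fragments from those stretches could be counted for either.

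B2m, the light chain of every class I molecule, was the most abundant of the 10 per length. By ratio of means between genotypes it moved least in preadipocytes and most in adipocytes. It was at 1750.1, 1903 and 1701 FPKM in Aclyf/f preadipocytes and at 1868, 2559 and 2122 FPKM in Acly-/- preadipocytes. Adipocytes had 1886, 1994 and 1940.4 FPKM with Acly and 3817, 3798 and 4269.5 FPKM without. Only the Acly-/- adipocytes stood apart from the other groups. The preadipocyte difference was 0.28 (SE 0.11) on the log2 scale with an adjusted p = 0.0495. That call was lost in 16 of 19 alternative settings, whose adjusted p ranged from 0.0110 to 0.354. Leaving out any 1 library other than Acly-/- preadipocyte library 1 or Acly-/- adipocyte library 3 ended it, and without Acly-/- preadipocyte library 2 the difference was 0.16 (adjusted p = 0.211). In adipocytes the difference was 1.03 (SE 0.11, adjusted p = 3.13e-06). It was called in all 19 alternative settings, but its size there ranged from 0.463 to 1.06. B2m rose with differentiation by 0.87 without Acly (adjusted p = 9.13e-06), against 0.12 with Acly (adjusted p = 0.319). The change with Acly ranged from 0.088 to 0.386 over the alternative settings and was called in 1 of 19. The difference between these responses was 0.75 (adjusted p = 0.00121), and it ranged from 0.354 to 0.868 over 18 alternative settings. The deposited locus of B2m, 122120108 to 122186189 on chromosome 2, is wider than the RefSeq gene (122147687 to 122153082) and also spans Patl2 on the other strand.

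**Figure D2:**
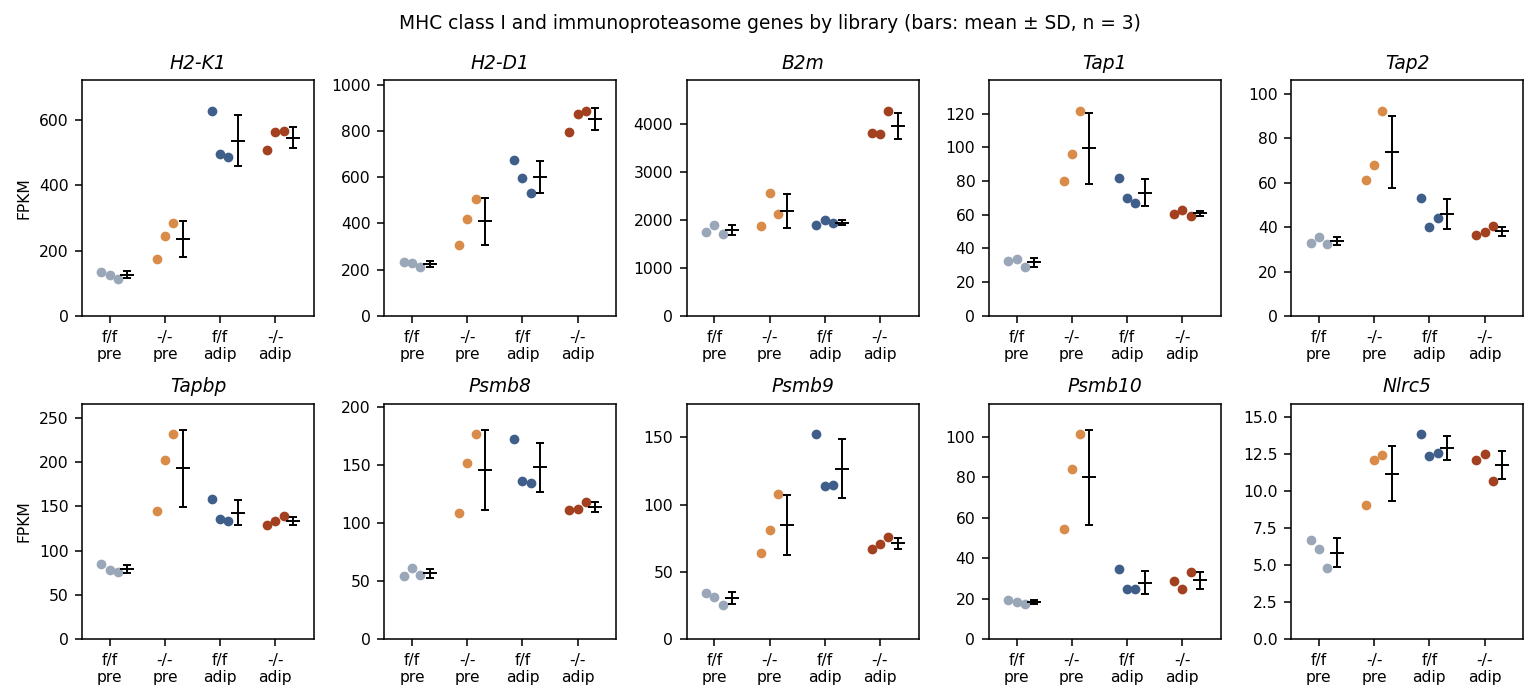
FPKM (y axes, linear and starting at 0) of each gene in the 12 libraries, with the 3 points of a group in library order and the mean ± SD beside them. f/f is Aclyf/f, -/- is Acly-/-, pre is preadipocyte and adip is adipocyte; Aclyf/f preadipocytes have the lowest mean for all 10 genes, and library 1 is the lowest Acly-/- preadipocyte library for all 10.

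The transporter genes Tap1 and Tap2 and the loading factor Tapbp went in opposite directions with differentiation in the 2 genotypes. Tap1 was at 32.5, 33.9 and 28.7 FPKM in Aclyf/f preadipocytes and at 80.1, 96.3 and 122 FPKM in Acly-/- preadipocytes. In adipocytes it was at 82.0, 70.1 and 67.0 FPKM with Acly and at 60.3, 62.6 and 59.5 FPKM without. Acly-/- preadipocytes thus had the highest mean and Aclyf/f preadipocytes the lowest, and the means of both adipocyte groups lay between them. Libraries of the Aclyf/f adipocytes and the Acly-/- preadipocytes overlapped. Tap1 was higher without Acly by 1.60 (SE 0.13, adjusted p = 3.96e-07) on the log2 scale in preadipocytes. The adipocyte difference of -0.25 was not called (adjusted p = 0.101), although the groups did not overlap. It was called in 4 of 19 alternative settings. Among these were the fits without Acly-/- preadipocyte library 1 (adjusted p = 0.0480) or 3 (adjusted p = 0.0325), and with each library rescaled to the same FPKM sum (adjusted p = 0.0108). Tap1 rose by 1.18 with differentiation in Aclyf/f cells and fell by 0.68 in Acly-/- cells (adjusted p = 1.32e-06 and 0.000346), a difference of -1.85 (adjusted p = 2.19e-06).

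Tap2, its partner in the transporter, was at 32.8, 35.6 and 32.3 FPKM in Aclyf/f preadipocytes and at 61.1, 68.2 and 92.3 FPKM in Acly-/- preadipocytes. Adipocytes had 53.1, 39.9 and 44.2 FPKM with Acly and 36.4, 37.9 and 40.5 FPKM without. The Acly-/- preadipocytes were above all other libraries, and the adipocyte groups overlapped. The log2 fold change with Acly loss was 1.09 in preadipocytes (adjusted p = 2.18e-05) and -0.24 in adipocytes (adjusted p = 0.137). The latter was called in 2 of 19 alternative settings (lowest adjusted p = 0.0145), 1 of them without Acly-/- preadipocyte library 3 (adjusted p = 0.0447). With Acly intact the rise of 0.43 on differentiation (adjusted p = 0.0105) was called in 17 of 19 alternative settings (highest adjusted p = 0.0550). Without Aclyf/f adipocyte library 1 it was 0.32 and not called (adjusted p = 0.0516). In Acly-/- cells Tap2 fell by 0.91 (adjusted p = 4.47e-05).

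Tapbp, which bridges the transporter and empty heavy chains, followed Tap1. It was at 84.8, 78.4 and 76.3 FPKM in Aclyf/f preadipocytes and at 145, 202 and 231 FPKM in Acly-/- preadipocytes. Adipocytes had 159, 136 and 133 FPKM with Acly and 129, 133 and 139 FPKM without, and these groups overlapped. The Acly-/- minus Aclyf/f difference of Tapbp was 1.24 in preadipocytes (adjusted p = 6.97e-06) and -0.09 in adipocytes (adjusted p = 0.597). Differentiation raised it by 0.83 with Acly and lowered it by 0.50 without (log2 fold change -0.50, adjusted p = 0.00505). The interaction was -1.34 for Tap2 and -1.33 for Tapbp (adjusted p = 6.51e-05 and 6.95e-05). Of the 50-base words of Tapbp, 20.3% also occur in the antisense gene Gm19412, and 9.22% of those of Tap2 occur in Gm15821. For Psmb8, 11.6% occur in the antisense gene Gm20496. Psmb9 and Tap1, which lie on opposite strands, share 4.19% and 2.88% of their words with each other. Whether the counting used strand is not stated in the sources used here, so reads of these pairs may not have been separated.

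The 3 inducible catalytic subunits of the proteasome rose together in Acly-/- preadipocytes and parted in adipocytes. Psmb8 was at 54.3, 61.2 and 55.1 FPKM in Aclyf/f preadipocytes and at 109, 152 and 177 FPKM in Acly-/- preadipocytes. Adipocytes had 173, 137 and 135 FPKM with Acly and 111, 112 and 119 FPKM without. Aclyf/f preadipocytes were the lowest group, and the Acly-/- adipocytes lay below the Aclyf/f adipocytes with no overlap. The Acly-/- minus Aclyf/f difference of Psmb8 was 1.32 (SE 0.14, adjusted p = 8.11e-06) in preadipocytes and -0.37 (SE 0.14, adjusted p = 0.0447) in adipocytes, on the log2 scale. The adipocyte call was lost in 11 of 19 alternative settings, over which the adjusted p ranged from 0.00444 to 0.176. It was lost without Aclyf/f adipocyte library 1 (-0.25, adjusted p = 0.176), without any 1 of the Aclyf/f preadipocyte or Acly-/- adipocyte libraries, and without Acly-/- preadipocyte library 2 (adjusted p = 0.0510 to 0.104 in these 7). Differentiation changed Psmb8 by 1.36 with Acly (adjusted p = 1.21e-06) and by -0.32 without (adjusted p = 0.0641). The latter was called in 4 of 19 alternative settings. Among these were the fits without Acly-/- preadipocyte library 1 (-0.52, adjusted p = 0.00142) or Aclyf/f adipocyte library 1 (adjusted p = 0.0455).

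Psmb9 had the largest difference between adipocytes with and without Acly among the 3 subunits. It was at 34.3, 31.7 and 25.7 FPKM in Aclyf/f preadipocytes and at 64.1, 81.6 and 108 FPKM in Acly-/- preadipocytes. Adipocytes had 152, 114 and 114 FPKM with Acly and 67.0, 71.0 and 75.7 FPKM without. All Aclyf/f adipocyte libraries were above all others, and both Acly-/- groups overlapped. The log2 fold change with Acly loss was 1.42 (SE 0.17, adjusted p = 1.66e-05) in preadipocytes and -0.81 (SE 0.17, adjusted p = 0.00107) in adipocytes. With Acly, differentiation raised Psmb9 by 2.01 (adjusted p = 1.00e-07), and the change in Acly-/- cells was -0.22 (adjusted p = 0.277), or -0.40 without Acly-/- preadipocyte library 1 (adjusted p = 0.0424). The difference between these responses was -2.23 (adjusted p = 5.65e-06), the largest in size of the 10 genes.

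Psmb10 was high in Acly-/- preadipocytes only. It was at 19.3, 18.2 and 17.3 FPKM in Aclyf/f preadipocytes and at 54.6, 84.0 and 101 FPKM in Acly-/- preadipocytes. Adipocytes had 34.6, 24.7 and 24.6 FPKM with Acly and 28.9, 24.9 and 33.3 FPKM without. The Acly-/- preadipocytes lay above all other libraries, and the adipocyte groups overlapped. The Acly-/- minus Aclyf/f difference of Psmb10 was 2.03 (SE 0.19, adjusted p = 1.98e-06) in preadipocytes and 0.06 (adjusted p = 0.809) in adipocytes. With Acly, Psmb10 rose by 0.57 on differentiation (adjusted p = 0.0144), a call lost without Aclyf/f adipocyte library 1 (0.42, adjusted p = 0.0686). That rise was called in 17 of 19 alternative settings (highest adjusted p = 0.0813). In Acly-/- cells Psmb10 fell by 1.39 (adjusted p = 2.29e-05). The interaction was -1.97 for Psmb10 and -1.68 for Psmb8 (adjusted p = 4.87e-05 and 1.76e-05).

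With Acly loss in preadipocytes, the constitutive partners Psmb5, Psmb6 and Psmb7 changed by 0.32, 0.02 and 0.18 on the log2 scale, of which only Psmb5 was called (adjusted p = 0.0376). In adipocytes Psmb5 fell by 0.45 (adjusted p = 0.00408), while its inducible partner Psmb8 fell by 0.37. With differentiation Psmb5 rose by 1.20 in Aclyf/f and 0.43 in Acly-/- cells, and Psmb7 by 0.50 and 0.47. With and without Acly in that order, Psmb5 averaged 94.6 ± 3.04 and 119 ± 18.5 FPKM (± SD, n = 3) in preadipocytes and 219 ± 27.9 and 159 ± 15.5 FPKM in adipocytes. Psmb6 had group means from 111 to 131 FPKM and was not called in any of the 5 comparisons. Psmb7 was at 123 ± 9.80 and 139 ± 11.5 FPKM in preadipocytes and at 174 ± 0.430 and 194 ± 21.4 FPKM in adipocytes, in the same order. Since FPKM is per length, each inducible subunit can be set against the one it replaces. In preadipocytes the Psmb8/Psmb5 ratio was 0.601 ± 0.0264 with Acly and 1.23 ± 0.226 without, with single libraries at 0.985, 1.43 and 1.26. In adipocytes it was 0.675 ± 0.0112 with Acly and 0.718 ± 0.0488 without.

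The Psmb9/Psmb6 ratio was 0.276 ± 0.0388 and 0.742 ± 0.131 in preadipocytes with and without Acly, and 0.968 ± 0.0627 and 0.600 ± 0.0322 in adipocytes. Psmb9 came nearest to the level of its partner in adipocytes with Acly. The Psmb10/Psmb7 ratio was 0.150 ± 0.0197 and 0.577 ± 0.175 in preadipocytes and 0.161 ± 0.0330 and 0.150 ± 0.00518 in adipocytes, again with and without Acly. All 3 ratios stood apart between the preadipocyte genotypes. In an exact two-sided permutation test with 3 libraries against 3 the smallest possible p is 0.1, which all 3 preadipocyte differences reached (adjusted p = 0.15 over 12 tests), so the design cannot pass 0.05. Other comparisons reached 0.1 too, so this is not particular to the preadipocytes. Among them were Psmb9/Psmb6 with Acly loss in adipocytes (log2 difference -0.69) and Psmb8/Psmb5 with differentiation in both genotypes. Without Aclyf/f adipocyte library 1, the small adipocyte difference of the Psmb10/Psmb7 log2 ratio turned from -0.09 to 0.08.

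**Figure D3:**
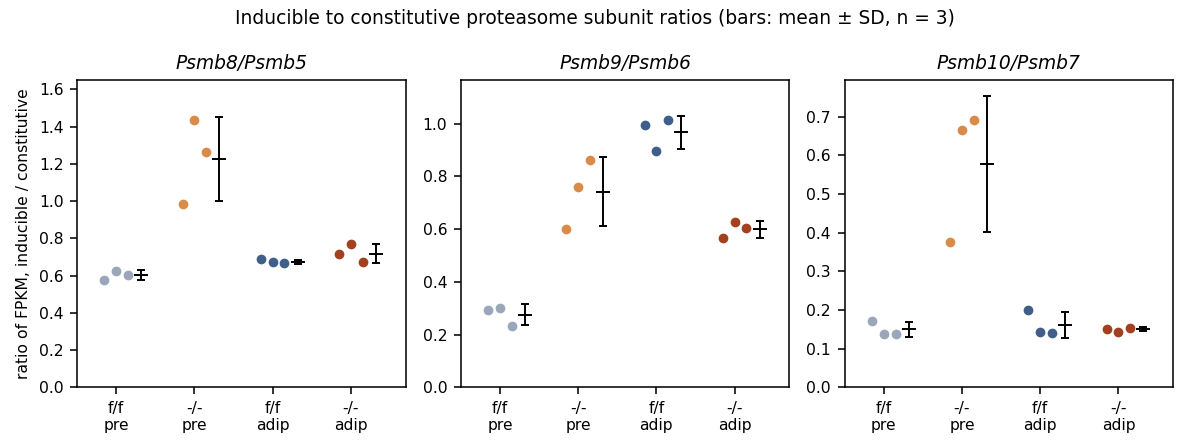
Ratio of FPKM of each inducible proteasome subunit to the constitutive one it replaces (y axes, starting at 0) in the 12 libraries, with the mean ± SD beside the points of each group. In Acly-/- preadipocytes all 3 ratios lie above those of Aclyf/f preadipocytes, and only Psmb9/Psmb6 is highest in Aclyf/f adipocytes.

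Nlrc5, the transactivator of class I genes, had the lowest level of the 10 per length. It was at 6.68, 6.09 and 4.80 FPKM in Aclyf/f preadipocytes and at 9.05, 12.1 and 12.4 FPKM in Acly-/- preadipocytes. Adipocytes had 13.8, 12.4 and 12.6 FPKM with Acly and 12.1, 12.5 and 10.7 FPKM without. Aclyf/f preadipocytes stood below the other 3 groups, which overlapped their neighbours in level. The Acly-/- minus Aclyf/f difference of Nlrc5 was 0.83 (SE 0.13, adjusted p = 0.000148) in preadipocytes and -0.13 (adjusted p = 0.416) in adipocytes. Differentiation raised it by 1.03 with Acly (adjusted p = 5.09e-06), and the change without Acly was 0.08 (adjusted p = 0.612), or -0.06 without Acly-/- preadipocyte library 1. The interaction was -0.95 (adjusted p = 0.000633).

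Across the 12 libraries the genes followed one another in part. On log2(FPKM + 1), Pearson's r was 0.984 for Tap1 with Tapbp, 0.967 for H2-K1 with H2-D1, 0.956 for Psmb8 with Psmb9 and 0.956 for Tap2 with Psmb10. It was -0.10 for B2m with Tap2. These values describe 12 libraries in 4 groups that also share depth within a library. Within groups the genes shared an order too: Acly-/- preadipocyte library 1 was the lowest of its group for 10 of 10 genes (33.2% of all genes), library 3 was the highest for 9 (40.4%), and Aclyf/f adipocyte library 1 was the highest for 9 (45.7%). The genes outside the set whose pattern was most like the mean of the 10 standardised profiles were Fbxw4 (r = 0.975), Slc9a3r1 (0.973), Dap3 (0.972), Tarbp2 (0.964) and Flt3l (0.964), over the same 12 libraries. Flt3l, which encodes a dendritic cell growth factor, was at 3.59 ± 0.128 and 7.90 ± 1.16 FPKM in preadipocytes and at 8.48 ± 0.561 and 7.41 ± 1.20 FPKM in adipocytes, with and without Acly in that order.

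Other class I and class I-like genes split by member. Of 24 listed, 15 passed the filter, and 8 were called higher and 3 lower in Acly-/- preadipocytes (median 0.47), where 19.7% of all genes were called higher and 22.4% lower. In adipocytes 1 was higher and 7 lower (median -0.30), against 25.6% and 29.2% of all genes. H2-T23, the gene of the Qa-1 heavy chain, was at 24.5 ± 1.41 FPKM in Aclyf/f and 58.8 ± 18.98 in Acly-/- preadipocytes (log2 fold change 1.18, adjusted p = 9.37e-05), and H2-T9 at 13.9 ± 4.87 and 33.7 ± 11.1 (1.21, adjusted p = 0.00191). Mr1, which presents vitamin B metabolites, fell from 18.8 ± 1.97 to 5.51 ± 0.577 FPKM (-1.60, adjusted p = 5.89e-08). In adipocytes the largest changes were in Cd1d1, a lipid-presenting molecule (24.5 ± 1.49 to 9.18 ± 0.362 FPKM, -1.32, adjusted p = 4.02e-07), H2-K2 (-0.95, adjusted p = 4.69e-05) and H2-Q7 (-0.94, adjusted p = 0.0121). H2-T and H2-Q genes have close copies, so their levels are uncertain. With differentiation 12 of the 15 rose and 1 fell in Aclyf/f cells (36.5% and 36.0% of all genes), led by H2-K2 (2.16) and Hfe (2.07). In Acly-/- cells 4 rose and none fell (30.4% and 31.0% of all genes), led, apart from H2-Q7, by Hfe (1.18) and Cd1d1 (1.06). H2-Q7 is counted as rising in both genotypes, but it passed the filter only through the adipocytes. It was at 0.134 to 2.09 FPKM in Aclyf/f and at 0.277 to 0.670 FPKM in Acly-/- preadipocytes. The filter thus fixed the direction of its rise, and no fold with differentiation is given for it. H2-Q5 too passed only through the adipocytes.

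Among 15 genes of peptide trimming, loading and folding, 4 were higher and 2 lower in Acly-/- preadipocytes (median 0.12), against 19.7% and 22.4% of all genes. Tapbpl, a tapasin relative that edits peptides, was at 6.77 ± 0.749 and 16.6 ± 3.56 FPKM with and without Acly (1.17, adjusted p = 5.16e-06), and the peptide-trimming protease Erap1 at 11.8 ± 0.537 and 26.4 ± 1.85 (1.10, adjusted p = 5.15e-07); Hspa5, an endoplasmic reticulum chaperone, rose by 0.69. In adipocytes 8 were higher and 2 lower (median 0.43), against 25.6% and 29.2% of all genes, led by the chaperones Pdia3 (1.25), Calr (1.07) and Canx (0.74), adjusted p = 2.07e-08, 4.78e-07 and 3.42e-06. Calr averaged 234 ± 19.2 and 494 ± 53.0 FPKM in adipocytes with and without Acly, and 517 ± 36.6 and 465 ± 21.9 FPKM in preadipocytes. Calr and Pdia3 fell with differentiation in Aclyf/f cells by 1.14 and 1.56, where Tapbpl rose by 0.81. In that genotype 5 of the 15 rose and 6 fell (36.5% and 36.0% of all genes), shares near the background. In Acly-/- cells 1 rose and 4 fell (30.4% and 31.0%), and Lnpep (0.61), Tapbpl (-0.40) and Pdia3 (-0.37) led.

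Of the rest of the proteasome, no tested gene rose in Acly-/- preadipocytes by as much as the inducible subunits (1.32 to 2.03), and the highest change was 1.05. In adipocytes the 20S genes ranged from -0.53 to 0.55 and the 19S genes from -0.61 to 0.49, against -0.81 to 0.06 for the inducible subunits. The shares of all genes called higher and lower were 19.7% and 22.4% in preadipocytes and 25.6% and 29.2% in adipocytes. Of 14 constitutive 20S genes, 2 were higher and 1 lower in Acly-/- preadipocytes (median 0.05), namely Psma3 (0.42), Psmb5 (0.32) and Psma6 (-0.22), and 3 were higher and 2 lower in adipocytes (median 0.01), led by Psma3 (0.55), Psma1 (-0.53) and Psmb5 (-0.45). Of 21 genes of the 19S regulatory particle, 0 were higher and 2 lower in preadipocytes, Psmc3 (-0.27) and Psmc2 (-0.20), and 5 were higher and 4 lower in adipocytes, no more than the share of all genes in either direction, led by Psmd9 (-0.61), Psmc1 (0.49) and Psmd6 (0.36). Psme1 and Psme2, which form the interferon-inducible PA28 activator, were higher in Acly-/- preadipocytes by 0.66 and 0.72 (adjusted p = 0.000302 and 0.000332). Psme2 was at 123, 114 and 113 FPKM in Aclyf/f preadipocytes and at 163, 212 and 206 FPKM in Acly-/- preadipocytes, and at 268, 201 and 212 FPKM in Aclyf/f adipocytes and 153, 154 and 184 FPKM in Acly-/- adipocytes. The adipocyte groups of Psme2 did not overlap, and the change was -0.47 (adjusted p = 0.00504). The other activator and assembly genes with the largest called changes were Psmg4 in preadipocytes (1.05) and Psmg1 (-0.37) and Psmg3 (0.31) in adipocytes; 5 of the 9 tested were higher and 0 lower in preadipocytes, and 2 higher and 2 lower in adipocytes.

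**Figure D4:**
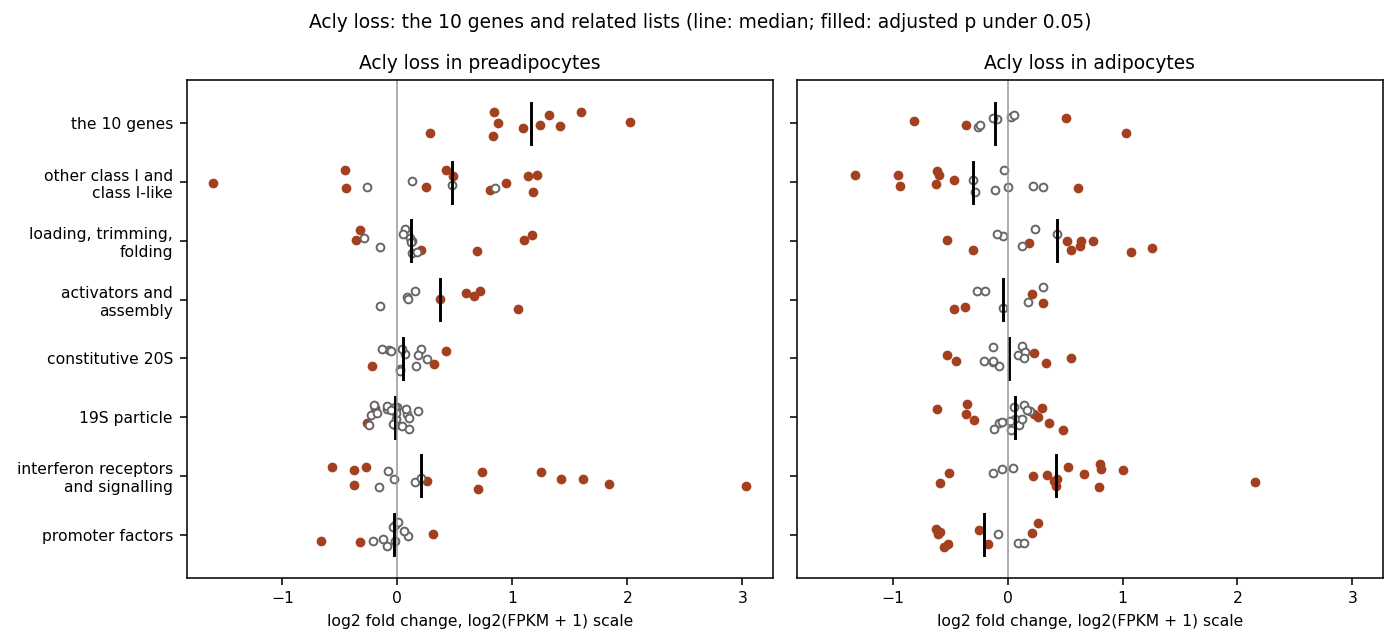
Log2 fold changes with Acly loss (x axis, log2(FPKM + 1) scale) of the 10 genes and of the related lists, in preadipocytes (left) and adipocytes (right), with 1 point per tested gene, a line at the median of each list and filled points at an adjusted p under 0.05. In preadipocytes the median of the 10 genes is 1.17, and those of the constitutive 20S and 19S lists are 0.05 and -0.02.

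Of 17 tested genes of interferon signalling, 8 were called higher and 4 lower without Acly in preadipocytes (median 0.21), where 19.7% of all genes were higher and 22.4% lower. In adipocytes 12 were higher and 2 lower (median 0.42), against 25.6% and 29.2% of all genes. Irf7, an interferon-induced transcription factor, was at 23.96, 27.4 and 23.9 FPKM in Aclyf/f preadipocytes and at 164, 234 and 251 FPKM in Acly-/- preadipocytes. It was at 37.7, 25.3 and 24.02 FPKM in Aclyf/f adipocytes and at 138, 133 and 120 FPKM in Acly-/- adipocytes. Both genotype differences, 3.04 and 2.15, were without overlap (adjusted p = 1.86e-08 and 1.87e-07).

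Irf1, a direct activator of class I and Psmb9 genes, changed sign between stages. It was at 30.5, 36.6 and 35.3 FPKM in Aclyf/f preadipocytes and at 53.2, 54.6 and 60.5 FPKM in Acly-/- preadipocytes. Adipocytes had 41.7, 40.1 and 39.0 FPKM with Acly and 27.7, 28.0 and 28.4 FPKM without. The genotypes did not overlap in either stage, with Acly-/- libraries above in preadipocytes (0.70, adjusted p = 9.18e-06) and below in adipocytes (-0.51, adjusted p = 9.73e-05); the interaction was -1.21 (adjusted p = 1.33e-06). Other leading genes were Socs1, a feedback inhibitor (1.62 in preadipocytes), and Stat2 (1.00) and Usp18 (0.82) in adipocytes. With differentiation 4 of 17 rose and 9 fell in Aclyf/f cells (36.5% and 36.0% of all genes), led by Socs1 (-1.83), Socs3 (-1.61) and Jak1 (-0.91). In Acly-/- cells 2 rose and 10 fell (30.4% and 31.0%), led by Socs1 (-2.64), Stat2 (-1.09) and Irf1 (-0.97).

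The factors that bind class I promoters changed less than Nlrc5 in preadipocytes. Of 12 tested, 1 was higher and 2 lower (median -0.03; 19.7% and 22.4% of all genes), namely Nfyc (0.31), Relb (-0.67) and Creb1 (-0.32). Rfx5, the X box factor, was at 6.82, 6.10 and 6.57 FPKM in Aclyf/f and at 6.25, 7.98 and 6.86 FPKM in Acly-/- preadipocytes, which overlapped (0.09, adjusted p = 0.474). In adipocytes it was at 7.76, 8.51 and 7.33 FPKM with Acly and at 4.59, 4.55 and 5.40 FPKM without (-0.60, adjusted p = 0.000176). There 2 of the 12 were higher and 7 lower, against 25.6% and 29.2% of all genes, led by Relb (-0.62), Rfx5 and Rfxap (-0.59). Ciita, the class II counterpart of Nlrc5, was between the floor of 0.01 and 0.0786 FPKM in all libraries and was not tested. Of 12 class II presentation genes 4 passed the filter, and H2-Aa stood at the floor in all 12 libraries. H2-Ab1 (0.47), H2-DMb1 (-0.43) and Ifi30 (-0.40) were called in preadipocytes and H2-DMb1 (-0.61) in adipocytes.

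Among 10 genes of interferon, TNF and related ligands, only Ifnb1, which encodes interferon beta, passed the filter, and it did so only through the Acly-/- preadipocytes. It was listed at the floor of 0.01 FPKM in all 6 Aclyf/f libraries, at 2.08, 1.08 and 1.08 FPKM in Acly-/- preadipocytes and at 0.179, 0.144 and 0.148 FPKM in Acly-/- adipocytes. The filter thus fixed the direction of this difference, and no test or fold is given for it. Ifna4, which encodes an interferon alpha, lay between 0.01 and 0.818 FPKM in Acly-/- preadipocytes and at the floor in all libraries of the other groups. The remaining 8 ligand genes reached at most 0.274 FPKM in any library. Cd274, the gene of the checkpoint ligand PD-L1, was at 0.775, 1.17 and 1.49 FPKM in Aclyf/f and at 5.68, 7.54 and 6.09 FPKM in Acly-/- preadipocytes without overlap (1.80, adjusted p = 2.93e-07). Its adipocyte levels were 2.88, 3.196 and 2.84 FPKM with Acly and 3.86, 4.09 and 3.01 FPKM without, which overlapped. Of the other genes on that list, Cd47, the gene of an inhibitory ligand for phagocytes, rose by 0.64 and Raet1d, which encodes an NKG2D ligand, fell by 0.94 in Acly-/- preadipocytes, and none of the 3 tested was called in adipocytes.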

How the data were processed

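RNA from 12 libraries was isolated with Trizol and prepared with an Illumina TruSeq kit, per the labels' protocols. The authors deposited FPKM per gene in 1 column per library, per the file headers; mm10, Bowtie2 2.2.6, Cufflinks 2.2.1 and bcl2fastq are listed in the submitters' processing notes, and the annotation, filter and strand handling are not stated in the sources used here. FPKM hold no counts, and no value lies under 0.01. The 11777 of 24341 genes that reached 1 FPKM in 3 or more libraries were fitted as log2(FPKM + 1) with limma 3.58.1 (R 4.3.3), as 4 group means over all libraries with a variance trend, and p-values were adjusted across all tested genes of each comparison (Benjamini-Hochberg). On simulated data for the preadipocyte comparison, 97.5% of 200 genes changed by 1 on the log2 scale were recovered, with 5 false calls. The simulated noise was drawn separately for each gene, and no other genes were changed. In the data 19.7% of genes were called higher and 22.4% lower, so the number of false calls does not carry over to them. Tables, depth estimates and sequence searches used Python 3.11.15, pandas 2.3.3, numpy 2.4.6, scipy 1.17.1 and Biopython 1.88.

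The 10 genes and the related lists were chosen with earlier results of these data known. From each related list the text names up to 3 called genes with the largest change in the genotype comparisons, and in the differentiation comparisons for the lists where it gives them, plus Psmb5, Psmb6, Psmb7, Irf1, Rfx5 and Ciita, and the 5 genes most like the set by Pearson correlation. Some genes that fall under this rule are not reported here. Markers and class II genes named at the floor were picked after their values were seen. Alternatives were another pseudocount (0.1), no filter, 3 rescalings, the replicate block, fits of 2 groups and leaving out each library. Replicate numbers recur in all groups, but deviations of same-numbered libraries correlated between -0.41 and 0.15, over 0.1 in 4 of 18 pairs, so the numbers were not taken to pair libraries.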

Additional observations from a re-analysis of the deposited data

Results flagged for a closer look

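The response to differentiation differed between genotypes by limma's interaction term in 9 of the 10 genes, where 50.2% of all genes tested were called in either direction. On the log2(FPKM + 1) scale, the response of Acly-/- cells minus that of Aclyf/f cells was -2.23 for Psmb9, -1.97 for Psmb10, -1.85 for Tap1, -1.68 for Psmb8, -1.34 for Tap2, -1.33 for Tapbp, -0.95 for Nlrc5 and -0.84 for H2-K1. It was 0.75 for B2m. These 9 calls were made in each of the 18 alternative settings run for the interaction. The difference for H2-D1 was -0.33 and was not called. Groups of 3 libraries are too small for an outlier test.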

How the results depend on the processing

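Over 940 alternative values of single genes, 885 kept direction and side of the threshold, 32 lost the call, 14 gained it and 9 changed sign. In adipocytes, the count of genes called higher with Acly loss (2) was 1 with no filter on low values. The count called lower (2) was 1 with no filter, 1 with median-of-ratios rescaling and 4 with rescaling to the same FPKM sum, and ranged from 1 to 4 when single libraries were left out. H2-D1 was not called there without the filter (adjusted p = 0.0576). The uncalled adipocyte difference of H2-K1 was -0.0826 with quantile normalization and -0.0493 with rescaling to the same FPKM sum, and ranged from -0.0316 to 0.151 when single libraries were left out. That of Psmb10 was -0.0200 with rescaling to the same FPKM sum and ranged from -0.0407 to 0.216 without single libraries. The change of Nlrc5 with differentiation in Acly-/- cells ranged from -0.0559 to 0.153 in that way. The log2 ratio of Psmb10 to Psmb7 changed by -0.171 to 0.0769 with Acly loss in adipocytes and by -0.0710 to 0.198 with differentiation in Aclyf/f cells when single libraries were left out. The cause of these shifts was not tested. With the replicate number as a block, which the pairing check did not support as a link between libraries, 9 genes were called higher in preadipocytes (B2m lost, adjusted p = 0.0553) and 1 lower in adipocytes, and the counts of the other comparisons were as in the fit without it. Depth is only estimated here, and Nlrc5 and Psmb10 rest on the fewest fragments.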
